A study of Mus musculus with 2 samples.

Results

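Mouse gastrocnemius, a calf muscle made mostly of fast fibres, read 169 protein-coding genes to more than 1 last exon. A gene counted when at least 2 of its annotated last acceptors, the genomic positions where the last intron of an annotated multi-exon transcript ends, each held at least 10 long reads summed over both libraries. The 169 genes were found among 20684 protein-coding genes with an annotated multi-exon transcript. Of these, 13316 had 2 or more annotated last acceptors, and 4720 of the 13316 had at least 1 acceptor past 10 reads, so 3.58% of the genes with that many reads passed the rule. The genes were thus chosen by their read counts. Together they held 354 last acceptors past 10 reads: 156 genes had 2, 10 genes had 3 and 3 genes had 4.

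The 2 libraries were long-read RNA-seq of total RNA from B6CASTF1/J female mice at 36 days, a first-generation cross of C57BL/6J with CAST/EiJ, with no treatment named. Both belong to 1 group, start from 2 µg of RNA and carry different animal numbers, although the labels repeat a single donor identifier, and they are treated here as separate animals. Spike-in transcripts were added to both. With a single group, no condition could be compared, and each SD is the spread between these 2 libraries.

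A last exon supplies the end of the reading frame, the 3′ untranslated region and the cleavage and polyadenylation site of an mRNA. A gene can offer several: a separate exon farther along, an internal exon that runs on past its donor site into the intron, or a second acceptor inside a shared last exon. Choosing between them can exchange the C-terminus of the protein, with its membrane anchors or binding domains, or change only the untranslated part. In muscle, the tropomyosins, lamins A and C, and the Z-disc protein of Ldb3 are well-known genes of this kind.

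The coding ends of 7 genes show what the choice of last exon changes in the message. Each line gives the last 30 coding bases of the annotated transcript (GENCODE M21, mm10), 5′ to 3′ on the strand of the gene, with the stop codon in capitals. For each gene the end with more reads comes first. The tropomyosin pairs are shown because the same choice recurs in 3 genes, and the other pairs because their alternative ends differ in how they attach or what they carry.
Tpm1, leading end (chr9:67029664-67029689 and chr9:67028164-67028167, minus strand): cacgctctcaacgatatgacttccataTAA
Tpm1, second end (chr9:67023359-67023388, minus strand): cagactttactggagctaaacaacatgTGA
Tpm2, leading end (chr4:43515921-43515950, minus strand): aacgcactcaatgacatcacttccctcTGA
Tpm2, second end (chr4:43514779-43514808, minus strand): cagacccttctggaactcaacaacctgTAA
Tpm3, leading end (chr3:90091066-90091091 and chr3:90091931-90091934, plus strand): cacgccctcaatgacatgacctctataTAA
Tpm3, second end (chr3:90099581-90099610, plus strand): cagaccctgctggacctgaacgagatgTAG
Lmna, lamin C end (chr3:88483297-88483326, minus strand): caccaccgtgtgagtggcagccgccgcTGA
Lmna, lamin A end (chr3:88482346-88482348 and chr3:88482074-88482100, minus strand): cagagctcccagaactgcagcatcatgTAA
Cdc42, leading end (chr4:137321103-137321132, minus strand): aagaagagccgcaggtgtgtgctgctaTGA
Cdc42, second end (chr4:137322530-137322559, minus strand): caacccaaaaggaagtgctgtatattcTAA
Qk, leading end (chr17:10213359-10213371 and chr17:10209615-10209631, minus strand): accgcagaccgagccgccaccggcaacTAA
Qk, second end (chr17:10216160-10216163 and chr17:10214169-10214194, minus strand): ttaggtatggctttcccaacgaaaggcTAA
Ldb3, leading end (chr14:34529460-34529489, minus strand): aagaagcacgcacatgccatcaacgtgTAG
Ldb3, second end (chr14:34561785-34561814, minus strand): tcagcccaaatccttaatgttaaaagcTAA

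The deposited tables held 853589 reads in replicate 1 and 1748822 in replicate 2, of which 797105 and 1602272 lay in annotated genes. Reads at an annotated last acceptor numbered 649604 and 1154119, or 81.5% and 72.0% of those in annotated genes. The 169 genes took 7.15% and 7.51%. The skeletal muscle markers (8 of 8 read in both libraries, 36.3% and 24.4% of the reads in annotated genes) fit the tissue label. The libraries stood apart in slow-fibre markers, which summed to 0.00314% in replicate 1 and 0.823% in replicate 2, with Myh7, Myl2, Myl3 and Myoz2 at 0 in replicate 1. Blood markers summed to 0.256% and 0.0554%, adipocyte markers to 0.0458% and 0.00768%, Schwann cell and nerve markers to 0.0345% and 0.0159%, fibroblast markers to 0.0930% and 0.0617%, endothelial markers to 0.00953% and 0.00905% and immune markers to 0.00364% and 0.00587%. In bulk tissue, fewer cells of a type and less RNA per cell cannot be told apart.

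Most of the 169 genes had a clear favourite. The share of a last exon is its reads divided by the reads at all annotated last acceptors of the gene, computed in each library and averaged. The last exon with most reads summed over both libraries (the leading one) took a median share of 76.0%, with quartiles of 59.9% and 89.0% and a range from 40.9% to 99.97%. The median was 79.2% in replicate 1 and 75.4% in replicate 2. The second last exon took a median of 21.4%. It reached at least 25% in 74 genes and at least 10% in 128, while in 12 genes it stayed under 2%. Tpm1, Myl1, Car3 and Tpm2 were among those 12. At the threshold, 27 last acceptors held exactly 10 reads, among them those of Brms1l (5 and 5 reads in replicates 1 and 2), Ccpg1 (4 and 6) and Bcl7b (1 and 9). A further 17 acceptors fell just outside with 9 reads, in genes with another acceptor of at least 10 reads. Among them were those of Gpi1 (5 and 4), Fbxw2 (3 and 6) and Acadm (1 and 8). Since the reads chose the genes, these shares are a description. The median gene held 118 reads at its last acceptors, and 78 genes held under 100, so many shares carry wide counting intervals.

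In 101 of the 169 genes the 2 leading last exons lay apart in the genome, with acceptors 443 to 394092 nt from each other (median 7667 nt). The more distal exon led in 66 of these 101. The upstream exon was an exon used only as a last exon in 51 genes, an internal exon extended past its donor site in 46, and an internal exon with no extension in 4 (Hnrnpa1, Neb, Trdn and Zfp672). In the other 68 genes the 2 last exons overlapped. Of these, 35 used alternative acceptors, with a median distance of 22 nt, and 33 differed by an intron that was kept inside the longer form. The form with the intron kept led in 15 of the 33.

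The position of the last exons and the end of the protein went together in the annotation. Different stop codons were annotated for the 2 leading last exons of 93 genes (55.0%) and the same stop codon for 44. In 31 (18.3%), no coding transcript was found for 1 of the ends. One further gene, Trdn, had an incomplete coding end. Separate last exons gave different stops in 68 of 101 genes and the same stop in 5. Overlapping last exons gave different stops in 25 of 68 and the same stop in 39. The end without coding sequence was the second in 21 genes and the leading one in 10, and it was found in 27 of the genes with separate last exons and in 4 of the others. Protein ends were taken from the annotated coding transcript with most reads at each acceptor. Where annotated transcripts at an acceptor had reads, only those were searched for a coding sequence. An end without coding sequence may thus have an annotated coding transcript that had no reads. In 29 genes at least 1 of the 2 acceptors had only reads of unannotated splice combinations, and 17 of the 93 genes with different stops were among them. Of all 354 last acceptors past 10 reads, 77 held more reads of unannotated splice combinations than of annotated transcripts. The protein that those reads encode was not read from them.

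**Figure D1:**
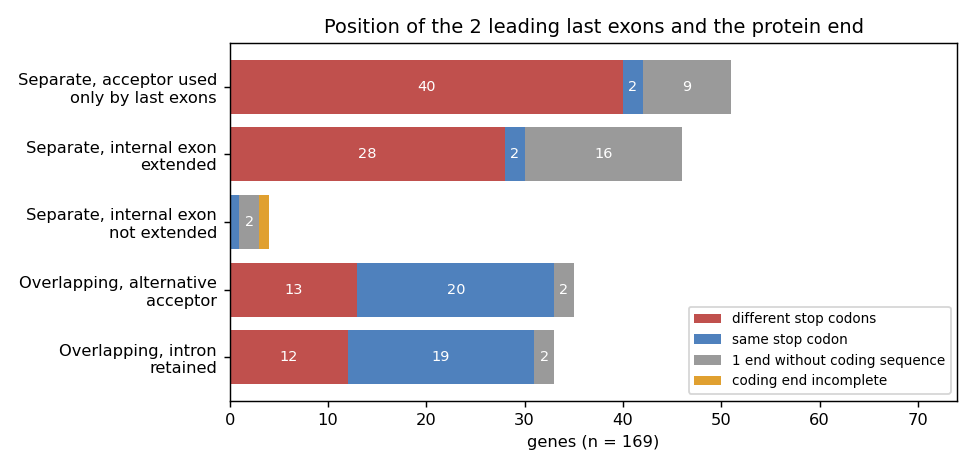
Number of genes (horizontal axis) by the position of their 2 leading last exons (rows) and by the effect on the annotated protein end (colours). Genes with separate last exons mostly had different stop codons (68 of 101), and genes with overlapping last exons mostly shared a stop (39 of 68).

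In the 90 genes whose transcripts shared a codon before they diverged, a median of 32 residues was private to the leading end and 23 to the second end. The second end was the shorter of the pair in 51 genes, the longer in 34 and of equal length in 5. It had 10 or fewer private residues in 32 genes, and the leading end had 10 or fewer in 19 and over 100 in 24. Both ends had 50 or fewer in 42 genes. The whole second protein was between 90% and 110% of the leading one in length in 41 genes and under 50% of it in 16.

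**Figure D2:**
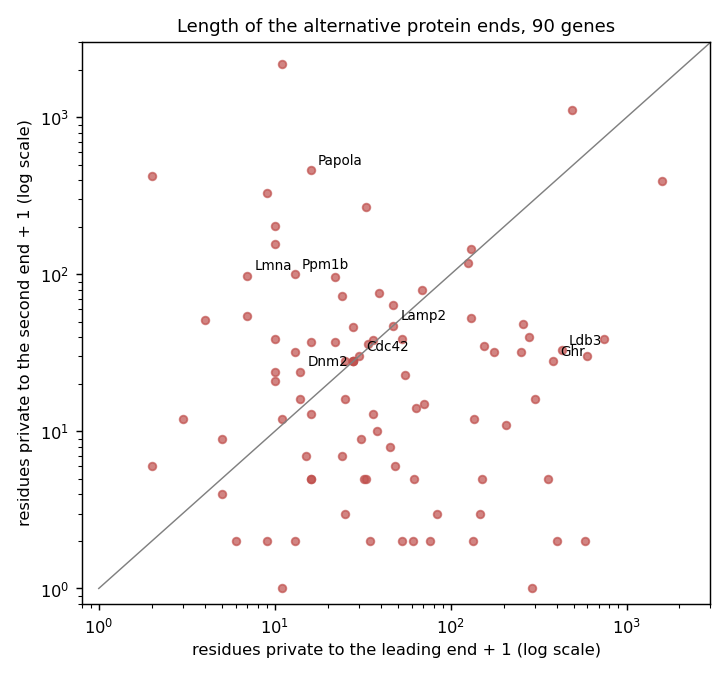
Residues after the last shared codon at the leading end (horizontal) against those at the second end (vertical), for 90 genes with different stop codons. Each is shown plus 1 on a log scale, and codons were compared by genomic position, not by amino acid. Points on the diagonal, such as Cdc42, exchange ends of equal length, and points to the lower right, such as Ldb3 and Ghr, replace a long end by a short one.

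Poly(A) signals were looked for in the last 50 nt of each annotated transcript, on its own strand. AATAAA, the main signal for cleavage, was present in 110 of 169 transcripts of the leading end (65.1%) and in 99 of 168 of the second end (58.9%). The share was 35.7% over the 84932 annotated multi-exon transcripts of protein-coding genes with a complete 3′ end. AATAAA or its variant ATTAAA was present in 78.7% and 72.0% of the members' transcripts and in 44.6% of all. For the separate last exons the shares were 77.2% and 68% (leading and second). The members' transcripts are those with reads and the full set holds many without, so the shares are given side by side without a test.

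Of the thin filament, Tpm1 and Tpm2 used almost a single last exon. Tropomyosin lies along actin and moves aside to let myosin bind. Its genes end either in the exon known from striated muscle, which led here by summed reads in Tpm1, Tpm2 and Tpm3, or in an exon known from smooth muscle and non-muscle cells, which was the second. In Tpm1, 23206 of 23225 reads in replicate 1 and 39068 of 39083 in replicate 2 used the leading exon (chr9:67027892-67028167), a share of 99.9% ± 0.0307 (SD, n = 2). Of its other last exons, 3 held 6 and 4 reads each, and the one at the lowest genomic position was taken as the second. In Tpm2, 854 of 855 and 4118 of 4128 reads did (chr4:43514712-43516003), 99.8% ± 0.0886 (SD, n = 2), and the second exon held 1 and 9 reads. The annotated leading exon of Tpm2 is 1292 nt long and runs into the second, whose acceptor lies 1142 nt downstream, so the pair was placed among the overlapping ones.

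Tpm3, the slow-fibre tropomyosin, differed between the libraries. Replicate 1 had 0 of 9 reads at the leading exon (chr3:90091931-90092130) and all 9 at the second (chr3:90099528-90100901), while replicate 2 had 1974 of 2005 and 31. The share of the leading exon was 0% in replicate 1 (exact 95% interval 0% to 33.6%) and 98.5% in replicate 2 (97.8% to 98.9%), with an adjusted p of 1.51e-13 (Fisher's exact test, two-sided, Benjamini-Hochberg over 816 genes). This interval and those below are Clopper-Pearson and cover counting error only. The slow-fibre markers moved the same way, with 8 of 8 called higher in replicate 2; their part in the share was not tested.

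Over 81 coding bases before the stop, the leading ends of the 3 tropomyosins matched each other at 81.5% to 88.9% of the bases. The paired lines of sequence above print only the last part of these bases. The second ends matched each other at 60.5% to 71.6%. Within 1 gene, the leading and second ends matched at 42.0% to 45.7%. Each end therefore resembled the same end of the other genes more than the alternative of its own gene, over 27 residues on every side.

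Myl1 and Neb, of the same list, each had a dominant end. Myl1, the fast essential light chain, had 15517 of 15521 and 31575 of 31583 reads at its leading end, and an extended internal exon held 4 and 8. Nebulin (Neb), the ruler of the thin filament, had 27 of 32 and 48 of 54 reads at the annotated end of its long transcripts, 86.6% ± 3.19 (SD, n = 2). The mean share of this end was 95.3% with incomplete models added. A short noncoding transcript that stops 182307 nt upstream held 5 and 6. Of 36 genes in the sarcomere list, 6 were members and 5 of these had different stops.

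Among Z-disc and LIM proteins, 2 of 33 listed genes were members, and both choose between a short form and a form with LIM domains. Ldb3 ties alpha-actinin to the Z disc. It had 7 and 16 reads: 5 and 8 at the distal exon (chr14:34526603-34529549), which ends the long form with 428 private residues, and 2 and 8 at an exon 32332 nt upstream, with 32. The share of the long form was 71.4% (29.0% to 96.3%) in replicate 1 and 50% (24.7% to 75.4%) in replicate 2, so these reads fix it poorly. Pdlim7, known as enigma, had 39 of 43 and 87 of 96 reads at the upstream end of a short form annotated at 188 residues, 90.7% ± 0.0514 (SD, n = 2). The distal end, annotated at 457 residues, held 2 and 9.

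Of 37 genes for membrane links and the cytoskeleton, 5 were members. Lmna encodes lamins A and C of the nuclear lamina, which share all but their ends. Lamin C, from an internal exon extended past its donor (chr3:88483205-88483413), held 41 of 67 reads in replicate 1 and 77 of 110 in replicate 2, 65.6% ± 6.23 (SD, n = 2). Lamin A, from the exon 1313 nt downstream (chr3:88481148-88482100), held 26 and 33 reads. The lamin C end has 6 private residues and the lamin A end 97, which include the site of its farnesylation before processing. The share of lamin C was 61.2% (48.5% to 72.9%) and 70.0% (60.5% to 78.4%), and the intervals overlap. With incomplete models added, the lamin C end held 83 of 110 and 373 of 410 reads, 75.5% and 91.0%, and the difference passed (adjusted p = 0.0101, Fisher's exact test with Benjamini-Hochberg adjustment).

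Cdc42, a small GTPase that shapes the actin cytoskeleton, has 29 private residues at each of its 2 ends, counted by codon position. Its distal end (chr4:137319696-137321192), known as the ubiquitous, prenylated form, held 48 of 56 and 94 of 114 reads, 84.1% ± 2.30 (SD, n = 2). The end 1427 nt upstream (chr4:137321762-137322619), known as the brain form, held 8 and 20. The brain form was thus read in both libraries of this muscle at 14.3% and 17.5%. The mean share of the distal end was 90.1% with annotated transcripts alone and 85.8% with incomplete models added. Dnm2, the GTPase that pinches off membrane vesicles, had 8 and 10 reads of 19 and 19 at its leading end and 8 and 7 at the second. Its leading exon lies over 202 nt of Tmed1 on the opposite strand. Dtna, the dystrobrevin of the dystrophin complex, had 12 of 26 and 15 of 34 reads at the distal end of a 567-residue form and 7 and 15 at a form of 371 residues. Sgca, alpha-sarcoglycan, had 78 of 83 and 142 of 149 reads at the leading of 2 acceptors 114 nt apart that share a stop. Its mean leading share, 94.6%, was 83.7% with incomplete models added.

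RNA-binding and splicing proteins gave 8 members of 64 listed genes, and of these only Qk had different stops. Of all 324 genes in the 7 lists of muscle and RNA genes, 24 were members. Quaking (Qk) is an RNA-binding protein whose last exon sets where in the cell it acts. Its leading end, known as the nuclear form QKI-5, held 48 of 52 and 43 of 57 reads, and the second, extended from an internal exon, held 4 and 10. The leading share was 92.3% (81.5% to 97.9%) and 75.4% (62.2% to 85.9%), with an unadjusted p of 0.0210 and an adjusted p of 1 by Fisher's exact test with Benjamini-Hochberg adjustment. Of the other 7 genes, Hnrnpa1, Hnrnpa2b1 and Srsf5 kept the stop, and Hnrnpk, U2af1, Srsf2 and Luc7l2 had 1 end without coding sequence.

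In Hnrnpk, which binds C-rich RNA, acceptors 60 nt apart held 46 and 46 reads in replicate 1 and 107 and 71 in replicate 2. For the leading one, the annotated transcript taken was noncoding. U2af1, which recognises the 3′ splice site, had 26 of 29 and 27 of 41 reads at its coding end, and an extended internal exon without coding sequence held 3 and 14. Srsf2, a splicing activator known to regulate its own message through introns near its 3′ end, had 34 of 36 and 44 of 53 reads with the last intron kept, and 2 and 9 reads with it spliced. Its last exons lie over Mettl23 on the opposite strand. Hnrnpa1 had 27 of 35 and 35 of 50 reads at its leading end and Hnrnpa2b1 93 of 106 and 150 of 179, each with a second end downstream that leaves the stop unchanged. Their mean leading shares, 73.6% and 85.8%, were 80.3% and 91.6% with annotated transcripts alone. With incomplete models added, the shares were 66.3% and 82.2%. Luc7l2 had 7 and 17 reads, too few for an order: an extended internal exon held 2 and 10, and the coding end 4 and 6.

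Pairs of acceptors a few bases apart made up a distinct group. Of the 35 genes with alternative acceptors, 10 had acceptors 3 nt apart, and 3 had acceptors 4 nt apart. The extra bases were CAG in 9 of the 10 and AAG in the other, and the upstream acceptor led in 8. The distance was a multiple of 3 in 18 of the 35 genes, and 15 of these kept the stop. Of the 17 with other distances, 12 changed the stop and 5 kept it. Over all 35 genes, 13 changed the stop, 20 kept it and 2 had an end without coding sequence.
The pairs of 3 genes are shown, with the bases present only with the upstream acceptor in capitals, 12 bases of the exon before it, and 15 shared bases after it.
Coro6, upstream acceptor (chr11:77469276-77469287 and chr11:77469376-77469393, plus strand): gcccccttgtcgCAGcagcacaccctggag
Coro6, downstream acceptor (chr11:77469276-77469287 and chr11:77469379-77469393, plus strand): gcccccttgtcgcagcacaccctggag
Vgll2, upstream acceptor (chr10:52025352-52025363 and chr10:52027431-52027448, plus strand): gaccctggagagCAGaaggcaccttcccga
Vgll2, downstream acceptor (chr10:52025352-52025363 and chr10:52027434-52027448, plus strand): gaccctggagagaaggcaccttcccga
Srsf5, upstream acceptor (chr12:80949593-80949604 and chr12:80949717-80949734, plus strand): caaaaggcacagCAGgtcaagaagcaggtc
Srsf5, downstream acceptor (chr12:80949593-80949604 and chr12:80949720-80949734, plus strand): caaaaggcacaggtcaagaagcaggtc

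Coro6, a coronin that binds actin and is known from muscle, had about equal reads at both acceptors. The downstream one held 38 of 77 reads in replicate 1 and 102 of 188 in replicate 2, 51.8% ± 3.47 (SD, n = 2). Placing a read at one of 2 acceptors 3 nt apart rests on the deposited alignments, which were not checked. With Known models only, Coro6 lost its place or its leading end. Vgll2, a cofactor of the TEAD transcription factors in muscle, had 48 of 70 and 152 of 278 reads at the upstream acceptor, 61.6% ± 9.83 (SD, n = 2). Srsf5, a splicing factor, had 28 of 30 and 55 of 72 reads at the downstream acceptor and 2 and 17 at the upstream one. With last acceptors within 12 nt of each other merged, the rule gave 154 genes in place of 169, and the number with separate last exons was again 101.

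Where both libraries held 50 reads or more, the 12 genes with the highest share of the second last exon were named, and in 8 of them the last exons overlapped. Mef2c, a transcription factor of muscle differentiation, held 34 and 35 reads at one acceptor and 35 and 33 at the next, 96 nt downstream inside the coding part. The annotated proteins are 464 and 432 residues long with the same stop, and the shares were 47.9% ± 1.92 and 47.2% ± 1.04 (SD, n = 2). Another annotated acceptor 2 nt farther held 4 and 3 reads. Hras, the GTPase of growth factor signalling, had 47 of 91 and 98 of 190 reads with its intron spliced, 51.6% ± 0.0491 (SD, n = 2). The form with the intron kept held 41 and 88 reads, and both share a stop.

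Of the rest of the 12, Ppm1b encodes a phosphatase of the metal-dependent family. It had 59 of 87 and 106 of 179 reads at an exon (chr17:85015409-85017197) that gives 12 private residues, 63.5% ± 6.08 (SD, n = 2), 25 and 66 at an exon 1843 nt upstream that gives 99, and 3 and 7 at another downstream. Ptov1 had 79 of 119 and 129 of 191 reads with its intron spliced, 67.0% ± 0.815 (SD, n = 2). Slc35a4 had 30 of 54 and 34 of 65, 53.9% ± 2.30 (SD, n = 2), and its other form kept an intron. Chpt1, which makes phosphatidylcholine, had 39 of 72 and 170 of 230 reads at its leading end, and 14 private residues against 6. The shares of 54.2% in replicate 1 and 73.9% in replicate 2 did not pass as different (adjusted p = 0.244, Fisher's exact test with Benjamini-Hochberg adjustment), and both exons lie over Sycp3 on the opposite strand.

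Ak6 and Cox16, also among these 12 genes, share their exons with a neighbour. The second last exon of Ak6, which held 16 of 50 and 59 of 163 reads, lies wholly inside an exon of Taf9 on the same strand, and its annotated protein has no codon in common with the other. Cox16, an assembly factor of cytochrome oxidase, had 37 of 54 and 92 of 169 reads at an exon 113007 nt downstream of its second, and both lie inside exons of Gm20498. Which gene such reads belong to was decided by the deposited assignment. Over all 169 genes, 31 had a leading or second last exon over an exon of another annotated gene, 10 on the same strand and 25 on the opposite strand.

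**Figure D3:**
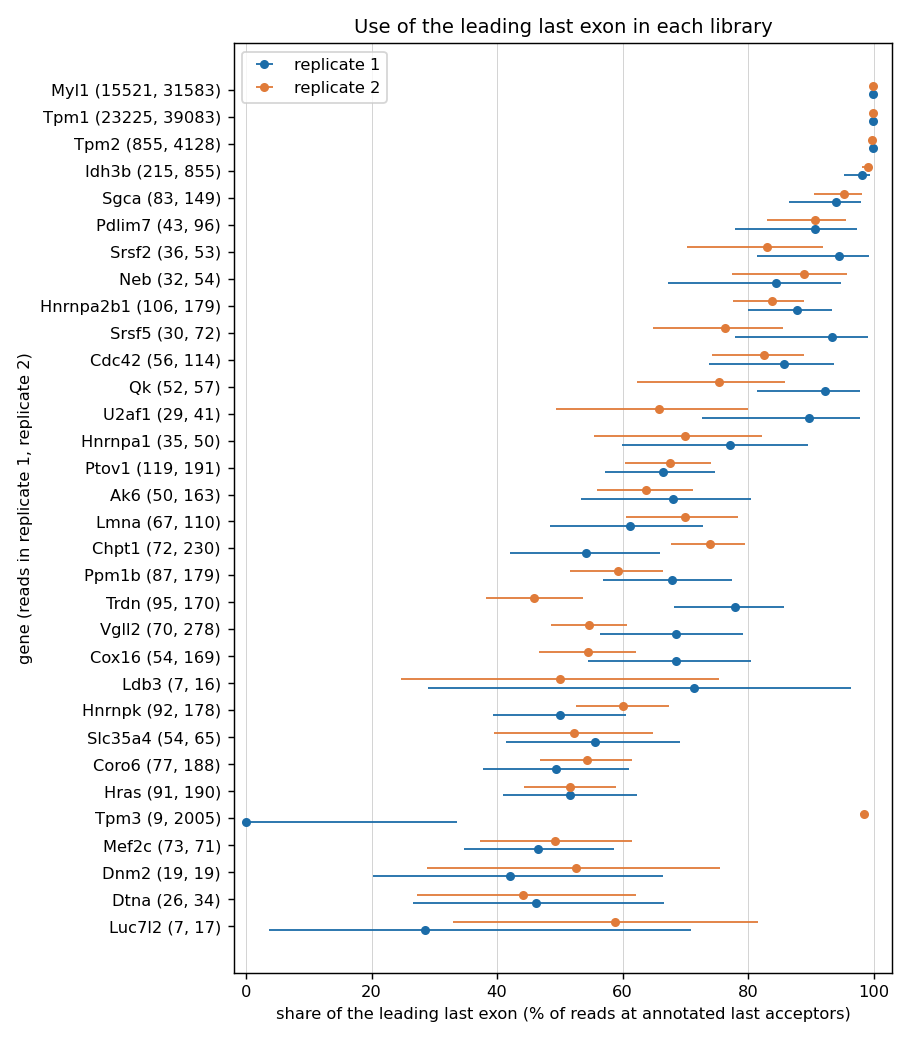
Share of the leading last exon (horizontal axis, percent of reads at annotated last acceptors) in replicate 1 (blue) and replicate 2 (orange) for genes with a high second share and listed genes, with exact 95% intervals for counting error and the reads of each library beside the name. Coro6, Hras and Mef2c lie near 50% in both libraries, Myl1, Tpm1 and Tpm2 near 100%, and Tpm3 and Trdn differ between the libraries.

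Genes outside the sarcomere were also among the most-read members. Car3, the muscle carbonic anhydrase, had 2538 of 2544 and 7273 of 7282 reads at its distal end, and an extended internal exon without coding sequence held 6 and 9. Fxyd1, phospholemman, which regulates the sodium pump, had 1189 of 1230 and 5776 of 5914 reads at its leading acceptor and 33 and 116 at the next, 35 nt downstream. The mean leading share of Fxyd1, 97.2%, was 86.2% with incomplete models added.

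Oaz1, an inhibitor of polyamine synthesis, had 1125 of 1149 and 2918 of 2966 reads at its leading acceptor. All of its reads at the 2 acceptors came from unannotated splice combinations. Drap1, a repressor of transcription, had 620 of 629 and 1311 of 1324, with the next acceptor 50 nt away and a different stop. Nipsnap2, a mitochondrial protein, had 510 of 519 and 1122 of 1137 with its intron kept. Ndufc1 and Ndufab1, both of respiratory complex I, had 709 of 715 and 2455 of 2461 reads, and 286 of 302 and 1267 of 1291, at ends that leave the stop unchanged. Idh3b, a subunit of isocitrate dehydrogenase, had 211 of 215 and 847 of 855 reads with its last intron spliced, and was the 1 member of 53 listed genes of energy metabolism.

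The shares of the 2 libraries followed each other across genes. In 158 genes both libraries held 10 reads or more, and 137 of these had the same leading last exon in both. Where last exons tied within a library, the acceptor at the lower genomic position was counted as leading. Across the 126 genes where both held 20 or more, Pearson r was 0.803 and Spearman rho 0.834. These are values across genes, which are not independent replicates, and the genes share the libraries and their depth. The median absolute difference was 4.33 percentage points. The largest was 37.3 points, in Papola, the enzyme that adds poly(A) tails, with 6 of 21 and 27 of 41 reads at an end of 15 private residues upstream and 13 and 13 at the full-length end.

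**Figure D4:**
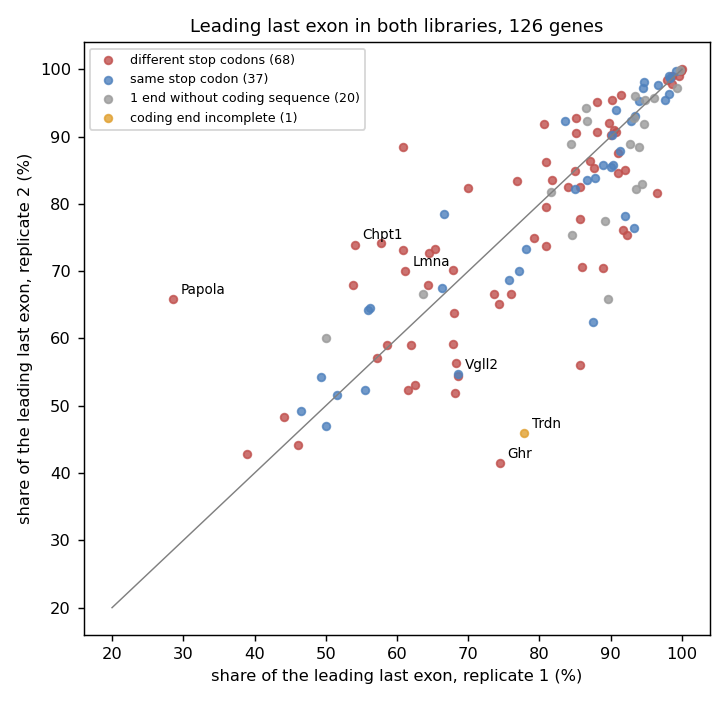
Share of the leading last exon in replicate 1 (horizontal, percent) against replicate 2 (vertical, percent) for the 126 genes where both libraries held 20 reads or more, coloured by the effect on the protein end. Most genes lie near the diagonal (median absolute difference 4.33 points), and Papola, Ghr and Trdn lie farthest from it among the labelled genes.

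The test of the leading share between the libraries called 2 genes of 816 tested (0.245%), which covers all protein-coding genes with enough reads at 2 or more annotated last acceptors. Calls required a difference of at least 10 points and an adjusted p under 0.05 (Fisher's exact test, Benjamini-Hochberg). It compares these 2 libraries and not conditions. Both called genes, Tpm3 and Trdn, were among the 168 members tested; Myoz2 had no read in replicate 1 and could not be tested. At an unadjusted p under 0.05 there were 26 genes among the 816 and 16 among the 168. The rule gave every member at least 10 reads at a second last acceptor, while other genes could be tested with fewer. Members could therefore pass more readily, and these counts show nothing particular to them.

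Triadin (Trdn) holds calsequestrin near the calcium release channel of the sarcoplasmic reticulum, and muscle is known to make several forms that differ at their ends. It was the 1 member among 35 listed genes of calcium storage and excitation. The distal end (chr10:33474379-33476709), annotated at 693 residues, held 74 of 95 reads in replicate 1 and 78 of 170 in replicate 2, 77.9% (68.2% to 85.8%) and 45.9% (38.2% to 53.7%). A 72-nt exon 240524 nt upstream (chr10:33233855-33233926) held 14 and 78 reads, and 2 ends of short forms held 4 and 6, and 2 and 8. The distal share was 32.0 points lower in replicate 2 (adjusted p = 0.000144, Fisher's exact test with Benjamini-Hochberg adjustment).

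Which end of Trdn leads depended on the reads counted. The annotated transcript at the 72-nt exon is incomplete at its 3′ end, and all 87 reads there from unannotated splice combinations were listed with exactly that exon length, so the true end was not seen. When models that hold only the last part of an annotated transcript were added, the 72-nt exon held 574 of 679 and 3166 of 3344 reads, 84.5% and 94.7%, and the distal end 79 and 93, 11.6% and 2.78%. The distal share was then still lower in replicate 2. With annotated transcripts alone, 8 and 16 reads were left at the last acceptors of Trdn, none at the distal end, and the call was lost. The slow-fibre markers differed between the libraries, as given with Tpm3; their part in the share was not tested.

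**Figure D5:**
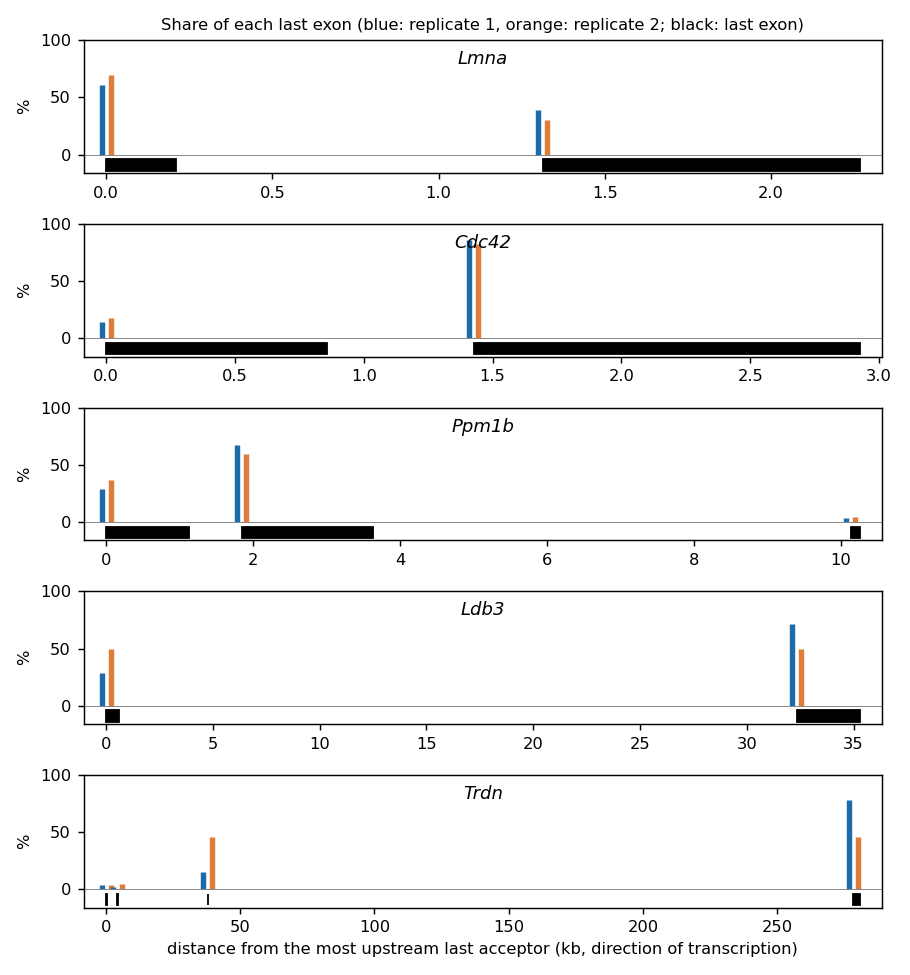
Share of each last exon (bars, percent; blue replicate 1, orange replicate 2) at its distance from the most upstream last acceptor of the gene (kb, to scale), with the annotated exons in black below, for 5 genes. The near exon leads in Lmna and the far exon in Cdc42 in both libraries, and in Trdn the far exon holds 77.9% in replicate 1 and 45.9% in replicate 2.

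Ghr, the growth hormone receptor, came next by p and was picked after its values were seen. Its distal end, which gives the full receptor of 650 residues, held 35 of 47 and 29 of 70 reads, 74.5% (59.7% to 86.1%) and 41.4% (29.8% to 53.8%). An end 6964 nt upstream, annotated at 297 residues and known as the soluble binding protein, held 12 and 41. The difference did not pass over all genes tested (adjusted p = 0.162, Fisher's exact test with Benjamini-Hochberg adjustment). It passed, with Tpm3 and Trdn, only where the 100 tested genes with separate last exons were adjusted on their own, a smaller family of tests that holds members alone.

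Genes of the machinery that chooses and cuts 3′ ends were read at low levels. Of 40 listed genes, 33 had at least 10 reads, and 5 of these were called between the libraries at 2-fold or more, 1 higher and 4 lower in replicate 2. Over all 8096 genes tested, 911 were called (11.3%): 468 higher (5.78%) and 443 lower (5.47%). The median log2 ratio of replicate 2 to replicate 1 was -0.30 for the list and 0.05 for all genes. Wdr33, which reads AATAAA, had 17 and 71 reads, 21.3 and 44.3 CPM (reads scaled to the library total in annotated genes). Mbnl2, a muscleblind protein known to steer the choice of 3′ ends, had 183 and 108 reads, 230 and 67.4 CPM (adjusted p = 2.65e-23, Fisher's exact test with Benjamini-Hochberg adjustment). Celf2 (47 and 44 reads), Rbfox1 (50 and 50) and Thoc5 (8 and 2) were the others called lower. Nudt21, of the cleavage factor that favours distal sites, had 6 and 34 reads and did not pass (adjusted p = 0.0759 by the same exact test). With Known models only, none of the 5 was called, and Celf2, Rbfox1 and Thoc5 had too few reads to be tested. Nudt21, with 5 and 33 reads, was then the 1 gene of the list called (adjusted p = 0.0390, Fisher's exact test with Benjamini-Hochberg adjustment). Of the 169 genes with alternative last exons, 13 were called higher and 6 lower as whole genes.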

How the data were processed

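The deposited files are read counts by transcript model in whole numbers and an annotation of those models, 1 of each per library; per the README beside the files, both rest on filtered alignments to mm10 with GENCODE M21. For the aligner and read correction, nothing is given in the sources used here. The deposited TALON classes were used: Known models match an annotated transcript, NIC models join annotated splice sites in another combination, NNC models use an unannotated site, and incomplete (ISM) models hold part of an annotated chain of introns. The deposited tables give each library on its own; members and leading ends were chosen on reads summed over both.

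Known, NIC and NNC reads were summed by the last acceptor. Exons, coding ends and sequences came from the 141862 Known models that matched M21 exactly. The last exon runs to the 3′ end of the annotated transcript with most reads. Shares have an SD over 2 libraries and exact Clopper-Pearson 95% intervals, for counting error only, because without molecular tags reads need not stand for separate molecules. Genes with at least 20 reads were compared by two-sided Fisher's exact tests with Benjamini-Hochberg adjustment, and gene totals likewise, in genes with at least 10 reads. Both tests were checked on simulated data. Whether the libraries came from separate animals rests on the labels, and p-values compare only these libraries. Scalings of edgeR 4.0.16 and DESeq2 1.42.0 (R 4.3.3) were alternatives. Python 3.11.15, scipy 1.17.1 and pandas 2.3.3 were used.

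The members and gene lists were chosen with earlier results of these data known. Named are the 12 members with most reads, the 12 with the highest second share among those with at least 50 reads in each library, up to 10 called members with as many reads, all members in the lists of muscle and RNA genes, and examples at the threshold; Ghr, Papola, Zfp672, Myoz2 and the genes of the closing observations were picked after their values were seen. Alternatives changed the models counted, the minimum of 10 reads (to 5 and 20), the merging of acceptors within 12 nt, the denominator, which stops counted as shared, the scaling and the libraries. Some members that the rule names are not reported here.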

Additional observations from a re-analysis of the deposited data

Results flagged for a closer look

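Reads also ended their last intron at positions that the annotation does not hold as a last acceptor, which none of the shares uses. Ndufab1 had 97 such reads at an acceptor 78 nt from an annotated one, 18 in replicate 1 and 79 in replicate 2. Trdn had 33 at an acceptor that is annotated inside the gene, 18 and 15, and 12 at another, 5 and 7. With no control samples, these stand out because each exceeds in both libraries the 3 counts that a count of 0 allows. Other members had 10 to 14 such reads at a position, in Araf, Fxyd1, Ankrd9 and Tpm3, with 3 or fewer in replicate 1.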

How the results depend on the processing

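The number of genes with alternative last exons depended on depth and on the models counted. From 169 it went to 112 with Known models only, 309 at 5 reads and 73 at 20 reads per acceptor, and to between 47 and 101 with a library left out. Separate last exons, 101 genes, went to 65, 182 and 36 under the same 3 settings, and to between 20 and 56 with a library left out. Different protein ends, 93 genes, went to 62 with Known models only, 174 at 5 reads, 37 at 20 reads, and between 23 and 54 with a library left out. The median leading share was 70.9% at 20 reads and between 68.5% and 74.2% with a library left out. The library test called 1 gene with Known models only (Tpm3) and 4 with incomplete models added (Tpm3, Trdn, Lmna and Sh3glb1). With these, the lamin C share of Lmna was 75.5% and 91.0% (adjusted p = 0.0101, Fisher's exact test with Benjamini-Hochberg adjustment). Ghr was called only where separate last exons were adjusted alone. The 3′-end processing list had 1 call with Known models only, Nudt21, which is none of its 5 main calls. Of named genes that kept their leading end, 15 of 23 with Known models only and 28 of 38 with incomplete models added had a leading share within 1 SD of the main value. Of the 41 named genes, 18 lost their place or their leading end with Known models only, 3 with incomplete models added (Trdn and Luc7l2 among them), 18 at 20 reads and 6 with acceptors merged, and 17 and 27 without replicate 1 and replicate 2. The causes were not tested. No paired analysis was possible because both libraries belong to 1 group.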

Other observations

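The genes below were picked after their values were seen and are given as values. Several end in alternative C-termini that are known to act differently in cells. Lamp2, a receptor of the lysosome membrane, has 46 private residues at each end. The leading end held 24 of 39 reads in replicate 1 and 34 of 65 in replicate 2, 56.9% ± 6.53 (SD, n = 2), and the second 13 and 29. Ppp1cc, a catalytic subunit of protein phosphatase 1, had 42 of 57 and 64 of 96 reads at the end of its 323-residue form, 70.2% ± 4.96 (SD, n = 2). The 337-residue form, best known from testis, held 15 and 32. Dnajb6, a co-chaperone of the Z disc, had 43 of 50 and 48 of 68 reads at the end of its long form of 365 residues, and 7 and 17 at the short form of 242. Usp19, a deubiquitinase of muscle, had 17 of 29 and 13 of 22 reads at its leading end, 58.9% ± 0.332 (SD, n = 2), and 12 and 9 at the other, with 38 and 75 private residues.

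In Gart, Araf and Ncor1, an upstream last exon goes with an annotated protein much shorter than that of the other end. Gart, which catalyses steps of purine synthesis, had 18 of 21 and 23 of 41 reads at the end of its 1010-residue form, and an extended internal exon known to give a shorter enzyme, of 433 residues, held 2 and 18. Araf, a kinase of the RAF family, had 14 of 20 and 28 of 34 reads at an end of 186 residues, and 6 and 6 at the full end of 604. Ncor1, a co-repressor, had 5 of 12 and 6 of 11 reads at an upstream end of 291 residues, and 6 and 4 at the end of its 2454-residue form. Stau2, which transports RNA, had 8 of 18 and 20 of 29 reads at its distal end and 10 and 9 at an extended internal exon 116145 nt away, with 1 private residue.

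Values of 4 muscle genes outside the lists follow. Mettl21c, a methyltransferase of muscle, had 31 of 38 and 67 of 82 reads at its coding end, 81.6% ± 0.0908 (SD, n = 2). Hspb2, a small heat shock protein, had 108 of 110 and 214 of 222. Cavin1, of caveolae, had 14 of 22 and 16 of 24 reads at an upstream exon, and 8 and 8 at its coding end. For the upstream exon, the annotated transcript taken was noncoding. Myoz2, of slow-fibre Z discs, had no read in replicate 1 and 418 of 429 at its coding end in replicate 2.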
